A study of Arabidopsis thaliana with 12 samples.

Results

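The UDP-glycosyltransferases (UGTs) form a large family of plant enzymes, and 55 of its genes were followed across 4 genotypes of *Arabidopsis thaliana* seedlings. Members were the genes whose symbol in the expression tables is UGT followed by a number, a letter and a number, with 6 glucosinolate and flavonoid enzymes left out, 3 of which carry such a symbol. They are 55 of the 33602 genes in the tables. Enough reads for a test were found for 50 members, and the other 5 (*UGT84B1*, *UGT84B2*, *UGT73C2*, *UGT71B8* and *UGT78D3*) fell below the filter on low counts.

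The 4 genotypes were wild type (WT), *jazQ*, *phyB* and *jazQ phyB*, all in the Col-0 ecotype. In *jazQ*, T-DNA insertions disrupt 5 JASMONATE ZIM-DOMAIN genes (*JAZ10*, *JAZ9*, *JAZ4*, *JAZ3* and *JAZ1*). The *phyB* line has the *phyB-9* allele of the photoreceptor gene *PHYTOCHROME B*, and *jazQ phyB* combines all of these alleles. Each of the 3 libraries of a genotype came from about 200 whole seedlings, roots included, that were pooled after 8 days on plates in continuous light, with WT and mutants on the same plate. A library therefore measures an average over organs, in which fewer cells of a type and less RNA per cell cannot be told apart.

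A UGT moves a sugar, usually glucose from UDP-glucose, onto a small molecule such as a hormone, a phenolic acid, a flavonoid or a foreign compound. The glycoside is generally more soluble and less active than the free molecule and can be stored in the vacuole, from which β-glucosidases may release it again. JAZ proteins repress the transcription factors of the jasmonate pathway, and phyB restrains growth-promoting factors in light, so the genotypes differ in the regulators of defense and of growth.

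Members of the family are recognised by a signature of 44 residues near the carboxy terminus, the PSPG box, which holds the UDP-sugar. A script translated the coding sequences of the RefSeq annotation (TAIR10.1 assembly) and found this box, written as W, then Q in position 4, then H, any residue, G and W from position 19, in 54 of the 55 members. The exception was the sterol enzyme UGT80B1, which lies outside the main plant groups. The DNA that encodes the box is printed for 6 members, with the codons of the H-x-G-W core in capitals. *UGT73C5* (chr2:15423787-15423918), *UGT73C6* (chr2:15420633-15420764) and *UGT73C1* (chr2:15410825-15410956) lie on the minus strand, each in its 1 coding exon, and are shown because they had lower levels in *jazQ phyB*. *UGT73B4* (chr2:6763006-6763137, plus strand, coding exon 2 of 2) and *UGT73B5* (chr2:6760060-6760191, plus strand, coding exon 2 of 3) are neighbours that share reads, and *UGT76D1* (chr2:11265195-11265326, plus strand, coding exon 2 of 2) was the member with a called interaction.
UGT73C5: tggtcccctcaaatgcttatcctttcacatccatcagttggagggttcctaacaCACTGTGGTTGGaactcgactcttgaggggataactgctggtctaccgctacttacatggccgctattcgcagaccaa
UGT73C6: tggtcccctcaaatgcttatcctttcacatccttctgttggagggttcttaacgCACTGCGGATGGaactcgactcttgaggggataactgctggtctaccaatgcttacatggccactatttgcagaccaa
UGT73C1: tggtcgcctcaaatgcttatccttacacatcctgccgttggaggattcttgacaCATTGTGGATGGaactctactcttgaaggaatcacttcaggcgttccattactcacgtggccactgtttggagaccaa
UGT73B4: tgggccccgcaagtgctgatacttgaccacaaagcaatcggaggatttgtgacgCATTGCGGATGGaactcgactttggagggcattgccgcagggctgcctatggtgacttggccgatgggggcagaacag
UGT73B5: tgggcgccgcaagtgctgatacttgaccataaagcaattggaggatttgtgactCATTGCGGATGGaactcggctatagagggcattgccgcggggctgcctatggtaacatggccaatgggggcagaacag
UGT76D1: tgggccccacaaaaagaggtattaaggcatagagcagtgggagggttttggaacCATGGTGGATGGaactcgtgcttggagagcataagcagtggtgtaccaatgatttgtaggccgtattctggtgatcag

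Over these 132 bases *UGT73C5* and *UGT73C6* differed at 11 positions (91.7% identity), and so did *UGT73B4* and *UGT73B5*, whereas *UGT73C1* differed from *UGT73C5* at 27. *UGT76D1* was 56.1 to 61.4% identical to the other 5. Reads of 50 bp can therefore be ambiguous between close members. Of all 50-base stretches of a member's RefSeq transcript, 18.5% of *UGT73B4*, 17.4% of *UGT73B5*, 7.86% of *UGT73C6* and 6.76% of *UGT73C5* also occurred in another gene, mostly in the partner just named. For 33 members no such stretch was shared. *UGT76E1* shared 84.35% with the transcript of a homeodomain-like gene, *AT5G59570*, and *UGT73B1* shared 25.3% with *AT4G34139*, a locus that is not a row of the expression tables. Values of these 6 members carry that uncertainty.

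The 12 libraries held 12750074 to 26347184 assigned counts, so that 3 counts, the floor of detection, were worth 0.114 to 0.235 CPM (counts-per-million units). Levels below are CPM scaled by the TMM method. Most of the mutated genes differed between the genotypes: from WT to *jazQ*, *JAZ1* went from 52.3 to 5.48 CPM and *JAZ4* from 5.71 to 2.48 CPM, while *JAZ3* went from 14.8 to 648 CPM and *JAZ10* from 3.64 to 258 CPM. *TIFY7* (*JAZ9*) did not separate them, at 61.35 to 87.98 CPM in WT and 79.11 to 84.82 CPM in *jazQ* (edgeR adjusted p = 0.627), and *PHYB* was at 83.6 CPM in WT and 55.2 CPM in *phyB*. A gene-level count adds reads from either side of an insertion. Root and leaf markers were both detected, and their summed levels differed between genotypes. The sum of 18 root markers was 244 to 278 CPM in *jazQ phyB* and 200 to 230 CPM in the other 9 libraries. Single root markers also moved in *phyB*. Of 17 tested, 2 were called higher and 1 lower there against WT, and 14 had log2 changes above 0 (median 0.311). The 1 called lower, *IRT1*, was at 57.8 CPM in WT and 28.4 CPM in *phyB*. In *jazQ phyB* against WT, 7 were called higher and 0 lower. Of all tested genes, 11.8% and 9.77% were called in these 2 comparisons. The sum of 9 leaf markers, most of them photosynthesis genes, was 22150 to 23320 CPM in *phyB*, 26620 to 33300 CPM in *jazQ phyB* and 34720 to 39480 CPM in WT and *jazQ*. All 18 root and all 9 leaf markers had counts in each genotype, and 4 flower markers, of which 1 was at 0 in all WT libraries, summed to 0.214 to 1.15 CPM. The part of these sums in the results below was not tested.

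The family was broadly expressed at moderate levels. Per unit length, *UGT73B1* stood highest with a mean of 134 TPM (transcripts-per-million units) over the 12 libraries and held 11.3% of the summed member TPM. Between 10 and 100 TPM lay 25 members, 19 lay between 1 and 10 TPM, and 10 lay under 1 TPM. The 10 highest members held 61.8% of the family's TPM. After *UGT73B1* came *UGT72E1*, which glucosylates monolignols (92.4 TPM), *UGT73B2* (89.2 TPM), the salicylate enzyme *UGT74F2* (85.7 TPM), the auxin enzyme *UGT74D1* (72.2 TPM), *UGT88A1* (69.4 TPM), *UGT85A2* (55.5 TPM), *UGT75B1* (50.2 TPM), *UGT73B3* (43.9 TPM) and *UGT72B1* (42.9 TPM). The TPM scale moved the median log2 change of all tested genes by 0.14 from the TMM scale in *phyB* and by 0.11 in *jazQ phyB* against WT, so genotypes were compared in CPM.

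**Figure D1:**
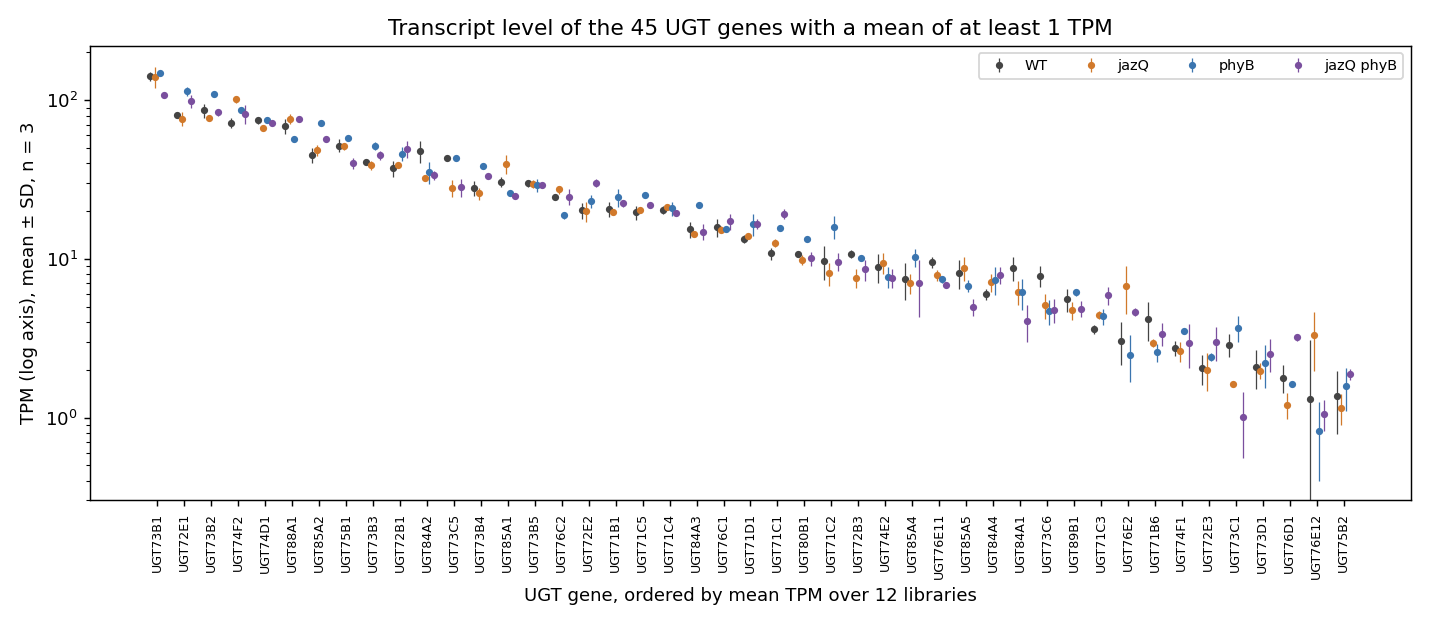
Mean TPM (log axis) with SD of the 3 libraries of each genotype for the 45 members with a mean of at least 1 TPM, in the order of their mean over 12 libraries. Levels run from 134 TPM for *UGT73B1* to about 1 TPM, and for most members the 4 genotypes lie close together beside that range. Downward error bars that would reach the lower end of the axis stop there.

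The summed level of the 55 members was 1508 ± 19.3 CPM in WT, 1490 ± 70.5 CPM in *jazQ*, 1539 ± 15.5 CPM in *phyB* and 1400 ± 46.5 CPM in *jazQ phyB* (SD, n = 3). The *jazQ phyB* libraries (1346 to 1429 CPM) lay below all WT and *phyB* libraries (1487 to 1554 CPM) and overlapped those of *jazQ* (1409 to 1534 CPM). *UGT73B1* alone went from 191.7 CPM in WT to 135.4 CPM in *jazQ phyB*. Of 50 tested members, 26 had log2 changes below 0 in that comparison and 24 above 0. On the TPM scale the sums of *jazQ phyB* (1130 to 1175 TPM) overlapped those of WT (1144 to 1180 TPM), and those of *phyB* were the highest (1278 to 1306 TPM). Within a genotype, the median coefficient of variation of a tested member was 10.3%.

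Of the 50 tested members, 23 differed in at least 1 of the 6 comparisons made, at an adjusted p-value below 0.01 (46.0%, against 23.1% of all tested genes), and 27 differed in none. The median level of tested members was 15.5 CPM, and that of all tested genes 17.7 CPM. The 47 calls had a median size of 0.54 on the log2 scale and ranged from 0.31 to 1.77, and 6 of them reached a size of 1. In all 46 calls from pairs of genotypes the libraries of the 2 genotypes did not overlap. A call with 3 libraries per genotype itself selects for such separation, and the share among all called genes was not counted. No member was called in opposite directions against WT.

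In *jazQ* against WT, no member rose and 2 fell, *UGT73C5* and *UGT84A2* (1.54% of all tested genes were called, 0.997% higher and 0.544% lower). At an unadjusted edgeR p below 0.05, 8 of the 50 tested members were higher and 11 lower. Of all 20957 tested genes, 1734 were higher and 1867 lower at that cut. DESeq2 called 5 members, 3 higher and 2 lower, limma on TPM 1, lower, and a fit to WT and *jazQ* alone 0. Of all tested genes, they called 2.28%, 1.18% and 0.527%. The count was 0 without WT replicate 2. It was 1 without WT replicate 1, *jazQ* replicate 1 or 2, *phyB* replicate 1 or 2, or *jazQ phyB* replicate 1. Without *jazQ* replicate 2 that 1 member was higher, and both falls were lost. A rise of 1 member was also called without WT replicate 3, *jazQ* replicate 3 or *jazQ phyB* replicate 2 or 3. With no filter on low counts, 1 member was higher and 2 were lower, beside 1.79% of all genes called. In the fits without 1 library, 0.791 to 2.35% of all genes were called.

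In *phyB*, 4 members rose and 7 fell against WT, beside 11.8% of all genes called (4.7% higher and 7.06% lower). *UGT85A2*, *UGT73B4*, *UGT71C1* and *UGT73B2* rose, and *UGT73C6*, *UGT71B6*, *UGT84A2*, *UGT76C2*, *UGT76E11*, *UGT88A1* and *UGT85A1* fell. With limma on TPM, 9 members were higher and 2 lower, beside 2917 of all genes called higher and 804 lower on that scale. The 11 calls became 7 without *phyB* replicate 1 or 2 and 5 without *phyB* replicate 3. In these fits, in order, 6.84%, 6.54% and 8.35% of all genes were called, beside 11.8% in the main fit.

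In *jazQ phyB*, 3 members rose and 10 fell against WT, beside 9.77% of all genes called (3.75% higher and 6.02% lower). *UGT71C1*, *UGT71C3* and *UGT72E2* rose, and *UGT73C1*, *UGT84A1*, *UGT85A5*, *UGT73C6*, *UGT73C5*, *UGT84A2*, *UGT76E11*, *UGT73B1*, *UGT75B1* and *UGT85A1* fell. Of these 13, 7 were called in neither *jazQ* nor *phyB*, 5 were also called in *phyB* and 2 also in *jazQ*, with *UGT84A2* in all 3 mutants. These comparisons share the WT libraries. The split rests on the threshold, and the same split of all called genes was not counted. Of the 7, *UGT84A1* was below WT in every library of both single mutants, whereas *UGT75B1* overlapped WT in both. With limma on TPM, 4 members were higher and 5 lower, beside 1331 of all genes called higher and 505 lower on that scale. The count was 8 without WT replicate 2 or *jazQ phyB* replicate 1 and 7 without *jazQ phyB* replicate 2.

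Against *jazQ*, *jazQ phyB* had 3 members higher and 4 lower, beside 6.79% of all genes called (2.63% higher and 4.15% lower). Against *phyB* it had 4 members higher and 9 lower, beside 11.8% of all genes (6.01% higher and 5.76% lower). With limma on TPM the first split was 3 higher and 2 lower, beside 994 of all genes called higher and 341 lower. The first count was 3 without *jazQ* replicate 1 and 4 without *jazQ phyB* replicate 1, and the second was 6 without *phyB* replicate 2 and 7 without *phyB* replicate 3. The shares of all genes called in these fits were 3.04%, 3.18%, 6.68% and 8.09%. The interaction is the amount by which the log2 change of *jazQ phyB* departs from the sum of the single-mutant changes. It was called for 1 member, *UGT76D1*, beside 3.61% of all genes (1.9% above and 1.7% below 0). The count was 4 by DESeq2 (1 above and 3 below 0), 3 without *jazQ* replicate 3, 2 without *jazQ phyB* replicate 2, and 0 without WT replicate 2 or *phyB* replicate 1 or 2. Of all genes, these fits called 4.18%, 2.47%, 2.5%, 2.14%, 2.0% and 1.7%, in that order. Without WT replicate 1 the count was 1 (2.98% of all genes), but that call was below 0 and *UGT76D1* was not called.

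**Figure D2:**
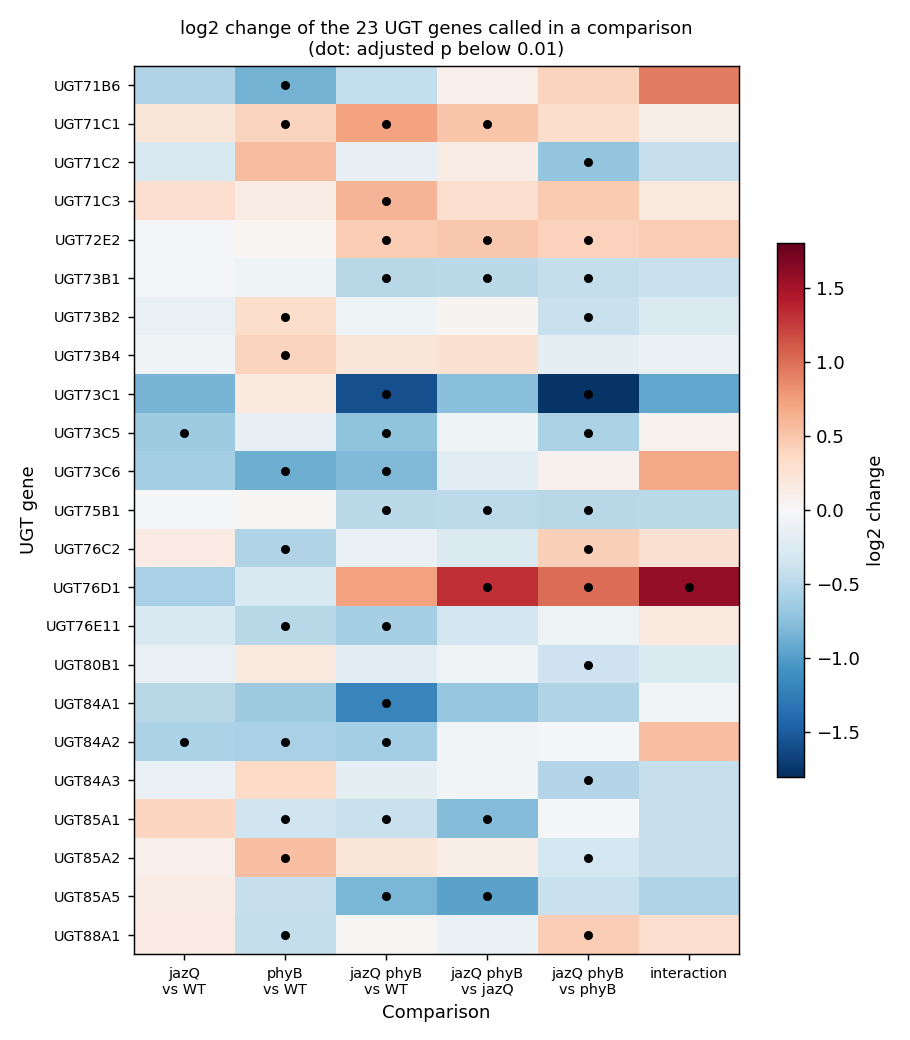
The log2 change (colour, red higher and blue lower in the genotype named first) of the 23 members called in at least 1 of the 6 comparisons, with a dot where the adjusted p was below 0.01. The largest falls are those of *UGT73C1* in *jazQ phyB* (−1.59 against WT and −1.77 against *phyB*), and the interaction column holds 1 dot, at *UGT76D1*.

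The UGT73C genes listed for brassinosteroids, the steroid growth hormones, and cytokinins were lower in *jazQ phyB*. UGT73C5 glucosylates brassinolide and the fungal toxin deoxynivalenol, UGT73C6 acts on brassinosteroids and flavonols, and UGT73C1 glucosylates cytokinins in vitro. All 3 fell in *jazQ phyB* against WT, and 1 of the 3 fell in each of the other mutants. Of all genes, 9.77% were called in *jazQ phyB*, 1.54% in *jazQ* and 11.8% in *phyB*. *UGT73C5* was at 52.8, 56.1 and 55.7 CPM in WT, at 40.6, 34.4 and 30.7 CPM in *jazQ*, at 49.6, 50.8 and 47.8 CPM in *phyB* and at 37.9, 31.9 and 29.4 CPM in *jazQ phyB*. The 6 libraries with the *jazQ* alleles thus lay below the other 6. The change was −0.63 ± 0.099 (SE) in *jazQ* (edgeR adjusted p = 0.00233), −0.72 ± 0.099 in *jazQ phyB* (edgeR adjusted p = 0.000196), and −0.57 ± 0.099 from *phyB* to *jazQ phyB* (edgeR adjusted p = 0.00103). In *phyB* alone it was −0.15 ± 0.097 (edgeR adjusted p = 0.296).

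*UGT73C1*, at a low level, showed the largest falls of the family. It was at 4.03, 3.45 and 3.00 CPM in WT, 2.03, 1.90 and 2.00 CPM in *jazQ*, 4.76, 4.005 and 3.31 CPM in *phyB* and 1.67, 1.06 and 0.665 CPM in *jazQ phyB*. The *jazQ phyB* libraries were the lowest and the *jazQ* libraries came next. Its level in *jazQ phyB* was 0.333 times that of WT (edgeR adjusted p = 0.000766) and 0.294 times that of *phyB* (edgeR adjusted p = 0.000296), and the change in *jazQ* was −0.83 ± 0.25 (edgeR adjusted p = 0.0797). *UGT73C6* was at 8.33 to 11.3 CPM in WT, 4.69 to 6.53 CPM in *phyB* and 4.47 to 6.46 CPM in *jazQ phyB*. It fell by 0.87 in *phyB* (SE 0.18, edgeR adjusted p = 0.00345) and by 0.79 in *jazQ phyB* (SE 0.17, edgeR adjusted p = 0.0059), and was −0.61 ± 0.18 in *jazQ* (edgeR adjusted p = 0.0748). *UGT73C2*, next to *UGT73C1*, reached at most 0.176 CPM in a library and was not tested. The *jazQ* call of *UGT73C5* ended without WT replicate 2 (edgeR adjusted p = 0.0116), without *jazQ* replicate 2 (0.0138) and in a fit to 2 genotypes (0.0154). The calls of *UGT73C6* ended in *phyB* without WT replicate 2 or 3 or *phyB* replicate 1 or 3 (0.0123 to 0.0207), and in *jazQ phyB* without WT replicate 2 or 3 or any 1 *jazQ phyB* library (0.0116 to 0.026), in a fit to 2 genotypes (0.013) and with limma on TPM (0.0163).

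**Figure D3:**
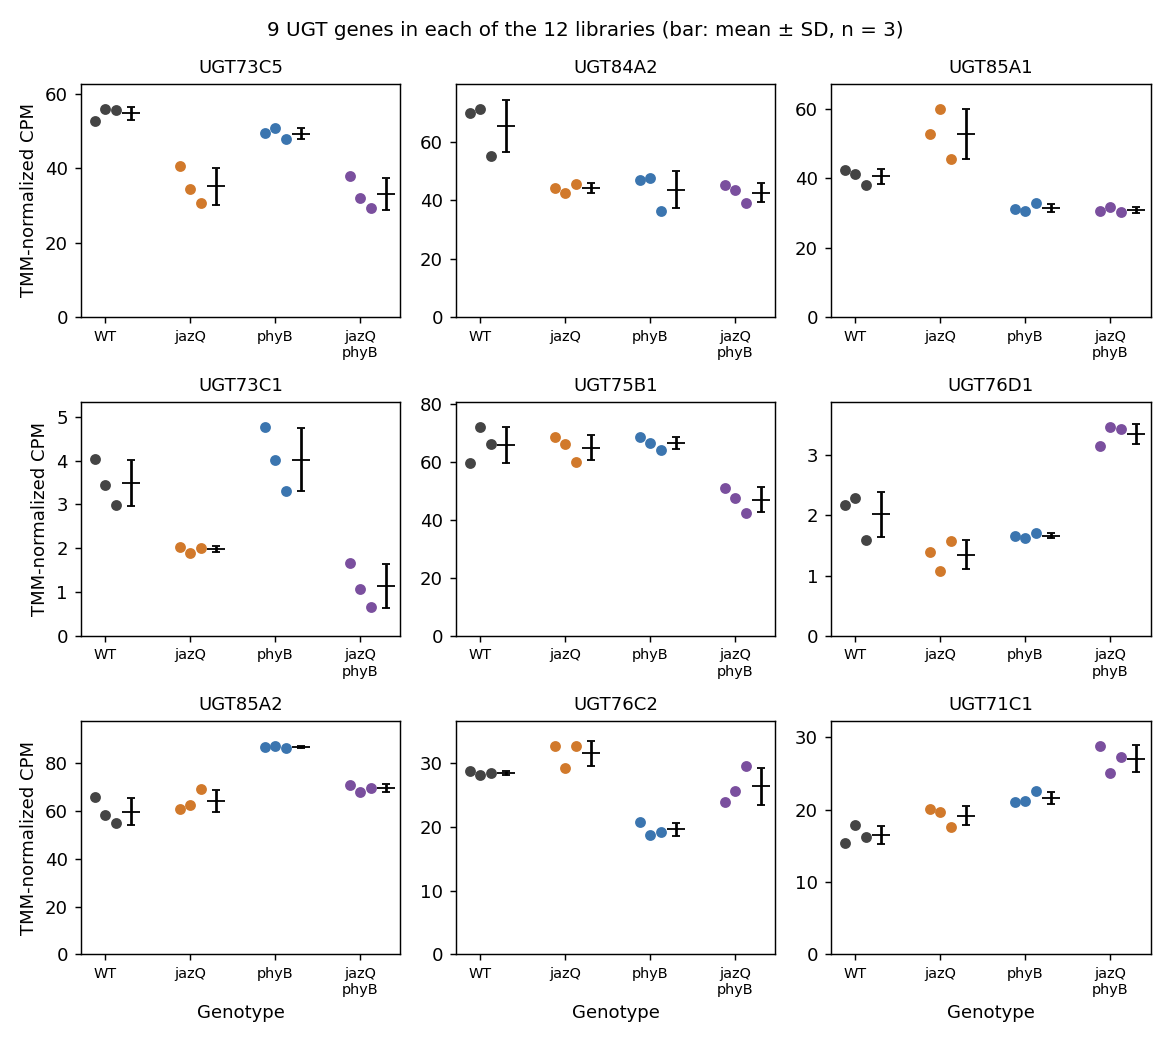
CPM of 9 members in each library (points) of the 4 genotypes, with the mean and SD of the 3 libraries as a bar, each axis starting at 0. *UGT73C5* is low in the 6 libraries with the *jazQ* alleles, *UGT84A2* in all 9 mutant libraries, *UGT75B1* in the 3 *jazQ phyB* libraries, and *UGT76D1* is highest in *jazQ phyB* (3.16 to 3.47 CPM).

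Of the 3 genes listed for cytokinin glucosylation, *UGT85A1* and *UGT76C2* were lower in *phyB*. UGT85A1 forms the O-glucoside of the cytokinin zeatin, a storage form, and UGT76C1 and UGT76C2 form N-glucosides. Against WT, 2 of the 3 fell in *phyB* and 1 in *jazQ phyB*, beside 11.8% and 9.77% of all genes called. *UGT85A1* was at 42.2, 41.3 and 38.1 CPM in WT, 52.8, 60.1 and 45.6 CPM in *jazQ*, 31.2, 30.6 and 32.8 CPM in *phyB* and 30.5, 31.7 and 30.2 CPM in *jazQ phyB*. The 6 *phyB-9* libraries lay below WT, and the *jazQ* libraries lay above it. From *jazQ* to *jazQ phyB* the level fell by 0.78 (SE 0.085, edgeR adjusted p = 6.57e-05) to 0.583 times. Against WT the changes were −0.36 ± 0.0865 in *phyB* (edgeR adjusted p = 0.00831), −0.40 ± 0.0855 in *jazQ phyB* (edgeR adjusted p = 0.00509) and 0.38 ± 0.084 in *jazQ*, which did not pass the threshold (edgeR adjusted p = 0.0192). The interaction was −0.42 ± 0.12 (edgeR adjusted p = 0.0454).

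*UGT76C2* was at 28.6, 28.1 and 28.45 CPM in WT, 32.6, 29.2 and 32.6 CPM in *jazQ*, 20.8, 18.8 and 19.2 CPM in *phyB* and 23.9, 25.6 and 29.5 CPM in *jazQ phyB*. It was lowest in the 3 *phyB* libraries. The change in *phyB* was −0.54 ± 0.083 (edgeR adjusted p = 0.000418), and from *phyB* to *jazQ phyB* the level rose by 0.42 ± 0.083 (edgeR adjusted p = 0.00242). Its neighbour *UGT76C1* stayed between 15.5 and 20.8 CPM in all libraries and was called in no comparison. The call of *UGT76C2* against *phyB* ended without *phyB* replicate 2 (edgeR adjusted p = 0.0154) or 3 (0.0127). The *phyB* call of *UGT85A1* ended without each library except WT replicate 3 and *jazQ* replicates 2 and 3 (0.0107 to 0.0381) and with limma on TPM (0.0776), and its *jazQ phyB* call against WT ended without WT replicate 1 or 2 or any 1 *jazQ phyB* library (0.0144 to 0.0233) and with limma on TPM (0.0413).

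Among the 6 members on the list for salicylate and other benzoates, none was called in a single mutant and 1 rose and 1 fell in *jazQ phyB* in each of its 3 comparisons. Of all genes, 9.77%, 6.79% and 11.8% were called against WT, *jazQ* and *phyB*. *UGT76B1*, also listed, is not a member because its row carries no UGT symbol, but it was called higher in *jazQ* (see Other observations). *UGT76D1*, which glucosylates dihydroxybenzoic acids made from salicylate, was the member with the interaction. It was at 2.17, 2.30 and 1.59 CPM in WT, 1.39, 1.08 and 1.57 CPM in *jazQ*, 1.66, 1.63 and 1.71 CPM in *phyB* and 3.16, 3.47 and 3.45 CPM in *jazQ phyB*. The *jazQ phyB* libraries were the highest, and both single mutants had means below WT. Its level in *jazQ phyB* was 2.48 times that in *jazQ* (log2 1.31 ± 0.20, edgeR adjusted p = 0.000659) and 2.00 times that in *phyB* (log2 1.00 ± 0.19, edgeR adjusted p = 0.00199). Against WT the change of 0.73 ± 0.18 missed the threshold (edgeR adjusted p = 0.0122). The interaction was 1.58 ± 0.28 (edgeR adjusted p = 0.00363), and its adjusted p rose above 0.01 without WT replicate 1 (0.0106), WT replicate 2 (0.0103), *phyB* replicate 1 (0.0104) or *phyB* replicate 2 (0.0119). The call against *phyB* ended without *phyB* replicate 2 (0.0106). Root marker sums were also highest in *jazQ phyB* (244 to 278 CPM), and their part in this result was not tested.

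*UGT75B1*, which glucosylates *p*-aminobenzoate and binds the callose synthase complex, was lower in *jazQ phyB* than in every other genotype. It was at 59.6, 71.96 and 66.3 CPM in WT, 68.7, 66.04 and 60.1 CPM in *jazQ*, 68.5, 66.7 and 64.3 CPM in *phyB* and 50.9, 47.65 and 42.5 CPM in *jazQ phyB*. The first 3 genotypes overlapped, and the *jazQ phyB* libraries stood apart. The change was −0.48 ± 0.082 against WT (edgeR adjusted p = 0.00101), −0.47 ± 0.082 against *jazQ* (edgeR adjusted p = 0.00195) and −0.50 ± 0.082 against *phyB* (edgeR adjusted p = 0.000693), with an interaction of −0.48 ± 0.12 (edgeR adjusted p = 0.0183). *UGT71C3*, which glucosylates methyl salicylate, was at 4.61 to 5.135 CPM in WT and 6.17 to 8.285 CPM in *jazQ phyB*, and rose by 0.61 ± 0.13 (edgeR adjusted p = 0.00562). The salicylate enzyme *UGT74F2* was at 80.8 to 97.2 CPM in WT, 116 to 130 CPM in *jazQ*, 93.4 to 101 CPM in *phyB* and 81.6 to 109 CPM in *jazQ phyB*. Its *jazQ* libraries did not overlap any others, yet the change of 0.49 ± 0.096 fell just short of the threshold (edgeR adjusted p = 0.0102). *UGT74F1* and *UGT89B1* were called in no comparison. The call of *UGT75B1* against *jazQ* ended without *jazQ* replicate 1 (edgeR adjusted p = 0.0131) and with limma on TPM (0.0101). That of *UGT71C3* ended without any 1 WT library or *jazQ phyB* replicate 1 or 2 (0.0115 to 0.0294) and in a fit to 2 genotypes (0.0207).

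Enzymes of monolignol and hydroxycinnamate glucosylation moved in both directions. The UGT84A enzymes form glucose esters of hydroxycinnamates, and the UGT72E enzymes glucosylate monolignols, the units of lignin. Of 8 members, 1 fell in *jazQ*, 1 fell in *phyB*, and 1 rose and 2 fell in *jazQ phyB* against WT. Of all genes, 1.54%, 11.8% and 9.77% were called in these comparisons. *UGT84A2*, which makes sinapoylglucose, the precursor of sunscreen sinapate esters, was lower in every mutant. It was at 69.7, 71.35 and 55.1 CPM in WT, 44.2, 42.5 and 45.7 CPM in *jazQ*, 46.8, 47.8 and 36.2 CPM in *phyB* and 45.2, 43.5 and 38.9 CPM in *jazQ phyB*. All 9 mutant libraries lay below all 3 WT libraries, and the mutants overlapped each other. The changes were −0.57 ± 0.11 in *jazQ* (edgeR adjusted p = 0.0097), −0.59 ± 0.11 in *phyB* (edgeR adjusted p = 0.00177) and −0.62 ± 0.11 in *jazQ phyB* (edgeR adjusted p = 0.00139). The interaction was 0.54 ± 0.16 (edgeR adjusted p = 0.0448). The *jazQ* call was lost without each library except WT replicate 3 and *phyB* replicate 3 (0.0107 to 0.048) and in a fit to 2 genotypes (0.0276), and with limma on TPM the adjusted p was 0.0286 in *jazQ*, 0.0167 in *phyB* and 0.0142 in *jazQ phyB*.

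*UGT84A1* was at 11.01, 13.7 and 10.05 CPM in WT, 7.06, 9.68 and 7.78 CPM in *jazQ*, 9.235, 5.93 and 6.935 CPM in *phyB* and 6.325, 4.995 and 3.63 CPM in *jazQ phyB*. All mutant libraries lay below WT, and the change passed the threshold in *jazQ phyB*, at 0.439 times the WT level (edgeR adjusted p = 0.00101). Its neighbour *UGT84A3* was at 28.2 to 28.8 CPM in *phyB* against 16.8 to 24.6 CPM in the other 9 libraries. From *phyB* to *jazQ phyB* the change was −0.53 ± 0.093 (edgeR adjusted p = 0.00116), and its change of 0.36 ± 0.092 in *phyB* against WT missed the threshold (edgeR adjusted p = 0.0123). *UGT84A4* was called in no comparison. *UGT72E2* was at 34.3 to 39.2 CPM in *jazQ phyB* and 22.8 to 30.2 CPM in the other 9 libraries. It rose by 0.46 ± 0.10 against WT (edgeR adjusted p = 0.00641), 0.49 ± 0.10 against *jazQ* (edgeR adjusted p = 0.00629) and 0.42 ± 0.10 against *phyB* (edgeR adjusted p = 0.00969). *UGT72E1*, the most abundant of the monolignol enzymes, was at 101 to 113 CPM in WT and 130 to 147 CPM in *phyB*, a change of 0.35 ± 0.0897 (edgeR adjusted p = 0.0129), and *UGT72E3* and *UGT72B1* were called in no comparison. The calls of *UGT72E2* ended against WT without WT replicate 2 or 3, *jazQ* replicate 1, *phyB* replicate 2 or *jazQ phyB* replicate 1 or 2 (0.0103 to 0.0312). Against *jazQ* they ended without WT replicate 2, *jazQ* replicate 1 or 3, *phyB* replicate 2 or *jazQ phyB* replicate 1 or 2 (0.0102 to 0.0303) and in a fit to 2 genotypes (0.014), and against *phyB* without WT replicate 2, *jazQ* replicate 1, any 1 *phyB* library or any 1 *jazQ phyB* library (0.0115 to 0.0507) and with limma on TPM (0.0274).

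The 4 UGT76E members form the jasmonate list, since UGT76E1 glucosylates hydroxylated jasmonate. None was called in *jazQ* (edgeR), beside 1.54% of all genes. However, 3 of the 4 had values above WT, and 2 of these 3 had an unadjusted p below 0.05. *UGT76E2* was at 4.96, 2.99 and 3.23 CPM in WT, 10.02, 5.01 and 9.71 CPM in *jazQ*, 1.95, 2.52 and 3.73 CPM in *phyB* and 4.88, 5.41 and 5.38 CPM in *jazQ phyB*. Its *jazQ* libraries lay above WT, with a change of 1.11 ± 0.27 (edgeR adjusted p = 0.0296). *UGT76E1* was at 0.23 to 0.47 CPM in WT and 0.677 to 0.857 CPM in *jazQ* (change 1.01 ± 0.40, edgeR adjusted p = 0.204). *UGT76E12* ranged from 0 to 4.61 CPM within WT and was called in no comparison. *UGT76E11* went the other way. It was at 13.4, 12.95 and 11.8 CPM in WT, 11.6, 10.2 and 9.78 CPM in *jazQ*, 9.09, 9.34 and 8.59 CPM in *phyB* and 8.39, 8.46 and 8.40 CPM in *jazQ phyB*, so that every mutant library lay below WT. It fell by 0.50 in *phyB* (SE 0.095, edgeR adjusted p = 0.00184) and by 0.60 in *jazQ phyB* (SE 0.093, edgeR adjusted p = 0.000556), and was −0.27 ± 0.093 in *jazQ* (edgeR adjusted p = 0.138). The *phyB* call ended without *phyB* replicate 3 (0.0111) and with limma on TPM (0.0139).

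On the abscisic acid and auxin lists, 1 of 5 tested members was called in any comparison, beside 23.1% of all tested genes. Of 3 tested members of the abscisic acid list, *UGT71B6*, which forms the glucose ester of abscisic acid, fell in *phyB*. It was at 5.62, 3.30 and 5.53 CPM in WT and 2.52, 2.45 and 3.09 CPM in *phyB*, a change of −0.85 ± 0.21 (edgeR adjusted p = 0.00913), and its neighbour *UGT71B8* did not exceed 0.433 CPM. This call was lost without each library except WT replicate 2 and *jazQ phyB* replicate 2 (0.0106 to 0.0429), in a fit to 2 genotypes (0.0207) and with limma on TPM (0.0255). *UGT71C5*, which also acts on abscisic acid, stayed between 23.9 and 32.6 CPM in the 12 libraries, and *UGT75B2* was called in no comparison. Of the auxin list, *UGT74D1*, which glucosylates indole-3-acetate, was at 89.5 to 95.3 CPM in WT and 79.7 to 85.6 CPM in the 9 mutant libraries. The groups did not overlap, and the changes were −0.17, −0.13 and −0.16 in *jazQ*, *phyB* and *jazQ phyB* (edgeR adjusted p = 0.0901, 0.0835 and 0.045). *UGT74E2*, which acts on indole-3-butyrate, was at 6.89 to 12.6 CPM in all libraries and was called in no comparison. *UGT84B1* and *UGT84B2* had counts in 1 library each and did not exceed 0.116 CPM.

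The UGT73B genes, several of which respond to pathogens and oxidative stress, included the most abundant member. *UGT73B1* was at 176, 194 and 205 CPM in WT, 216, 195 and 155 CPM in *jazQ*, 180.5, 186 and 178 CPM in *phyB* and 133, 134 and 139.5 CPM in *jazQ phyB*. The *jazQ phyB* libraries were the lowest, with a change of −0.50 ± 0.095 against WT (edgeR adjusted p = 0.00223), −0.48 ± 0.095 against *jazQ* (edgeR adjusted p = 0.00415) and −0.42 ± 0.095 against *phyB* (edgeR adjusted p = 0.00595). Of the 6 members on the defense and oxidative stress list, which holds the other UGT73B genes, 2 rose in *phyB* against WT and 1 was lower in *jazQ phyB* than in *phyB*. Each of these comparisons called 11.8% of all genes. *UGT73B2* was at 95.9, 107 and 101 CPM in WT, 93.1, 94.6 and 89.9 CPM in *jazQ*, 122, 128 and 127 CPM in *phyB* and 94.7, 93.6 and 98.4 CPM in *jazQ phyB*. It was highest in *phyB* (0.31 ± 0.055 against WT, edgeR adjusted p = 0.00112) and was lower again in *jazQ phyB* (−0.39 ± 0.055 against *phyB*, edgeR adjusted p = 0.000193), with an interaction of −0.26 ± 0.078 (edgeR adjusted p = 0.0464). *UGT73B4* was at 31.9 to 35.2 CPM in WT, 30.9 to 34.6 CPM in *jazQ*, 42.15 to 46.9 CPM in *phyB* and 37.0 to 41.0 CPM in *jazQ phyB*, and rose in *phyB* by 0.40 ± 0.070 (edgeR adjusted p = 0.00107). *UGT73B3*, *UGT73B5* and *UGT73C7* were called in no comparison. The calls of *UGT73B1* ended against WT without *jazQ phyB* replicate 1 or 2 (0.0112 to 0.0128) and with limma on TPM (0.0125), against *jazQ* without *jazQ* or *jazQ phyB* replicate 1 or 2 (0.0141 to 0.0229), in a fit to 2 genotypes (0.0178) and with limma on TPM (0.0205), and against *phyB* without any 1 *phyB* or *jazQ phyB* library (0.0133 to 0.0271) and with a replicate block (0.0101).

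*UGT71C1*, which glucosylates flavonoids and hydroxycinnamates in vitro, rose in *phyB* and in *jazQ phyB*. It was at 15.4, 17.9 and 16.2 CPM in WT, 20.1, 19.7 and 17.6 CPM in *jazQ*, 21.1, 21.1 and 22.6 CPM in *phyB* and 28.8, 25.1 and 27.3 CPM in *jazQ phyB*. The *jazQ phyB* libraries were the highest and the *phyB* libraries came next. The changes against WT were 0.40 ± 0.083 in *phyB* (edgeR adjusted p = 0.00363) and 0.72 ± 0.081 in *jazQ phyB* (edgeR adjusted p = 4.12e-05), and 0.22 ± 0.084 in *jazQ*, which was not called (edgeR adjusted p = 0.177). *jazQ phyB* exceeded *jazQ* by 0.50 ± 0.081 (edgeR adjusted p = 0.0011) and *phyB* by 0.32 ± 0.080 (edgeR adjusted p = 0.0102), and the interaction was 0.10 ± 0.12 (edgeR adjusted p = 0.655). The *phyB* call ended without WT replicate 1 or 3 or any 1 *phyB* library (0.0108 to 0.0197).

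The other called members have less settled substrates, apart from UGT80B1, which glucosylates sterols. *UGT85A2* was at 65.7, 58.3 and 55.0 CPM in WT, 60.7, 62.3 and 69.1 CPM in *jazQ*, 86.6, 87.1 and 86.4 CPM in *phyB* and 70.9, 67.75 and 69.7 CPM in *jazQ phyB*. It rose in *phyB* by 0.54 ± 0.069 (edgeR adjusted p = 0.000103) and was lower in *jazQ phyB* than in *phyB* (−0.32 ± 0.068, edgeR adjusted p = 0.00428), and the interaction was −0.42 ± 0.0975 (edgeR adjusted p = 0.0162). *UGT88A1* was at 79.25 to 100.4 CPM in WT, 92.2 to 104 CPM in *jazQ*, 63.3 to 68.3 CPM in *phyB* and 85.5 to 91.5 CPM in *jazQ phyB*. It was lowest in *phyB* (−0.42 ± 0.081 against WT, edgeR adjusted p = 0.00209) and near WT in *jazQ phyB* (0.44 ± 0.081 above *phyB*, edgeR adjusted p = 0.00146). *UGT85A5* was at 6.51 to 9.99 CPM in WT, 7.64 to 10.9 CPM in *jazQ*, 5.87 to 6.71 CPM in *phyB* and 4.35 to 5.44 CPM in *jazQ phyB*, and fell in the last by 0.82 against WT (SE 0.18, edgeR adjusted p = 0.00476) and by 0.96 against *jazQ* (SE 0.18, edgeR adjusted p = 0.0025). *UGT71C2* was at 15.5 to 21.8 CPM in *phyB* and 10.3 to 12.76 CPM in *jazQ phyB*, and *UGT80B1* at 22.7 to 23.3 CPM and 16.2 to 19.6 CPM. Their levels in *jazQ phyB* were 0.613 and 0.77 times those in *phyB* (edgeR adjusted p = 0.00718 and 0.00595).

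Of these calls, that of *UGT85A2* against *phyB* ended without any 1 *phyB* or *jazQ phyB* library (edgeR adjusted p = 0.0125 to 0.0193), and that of *UGT88A1* in *phyB* without *phyB* replicate 2 (0.0113) or 3 (0.0121) and with limma on TPM (0.0189). Those of *UGT85A5* ended against WT without WT replicate 2 or 3 or *jazQ phyB* replicate 1 or 2 (0.0196 to 0.0284), with limma on TPM (0.0149) and in a fit to 2 genotypes (0.0151), and against *jazQ* without *jazQ* or *jazQ phyB* replicate 1 or 2 (0.0109 to 0.0177). *UGT71C2* was lost without *jazQ* replicate 1, *phyB* replicate 2 or 3 or *jazQ phyB* replicate 1 or 2 (0.0109 to 0.0446) and with limma on TPM (0.0123), and *UGT80B1* without any 1 *phyB* library or *jazQ phyB* replicate 2 or 3 (0.017 to 0.0284). Leaf marker sums were lowest in *phyB* (22150 to 23320 CPM), where *UGT85A2* was highest and *UGT88A1* lowest, and their part in these results was not tested.

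Many members are neighbours on a chromosome. In the RefSeq order of protein-coding genes, 37 of the 55 members lay in 15 tandem arrays of 2 to 5 members, with at most 1 other gene between neighbours, and 17 of the 23 called members were in 11 of these arrays. Superfamily genes without a UGT symbol counted as other genes, so a run of UGT genes can be split into separate arrays. Over arrays and comparisons there were 27 instances with a call, of which 22 had 1 member called (3 of them in arrays with 1 tested member), 4 had more than 1 called in the same direction and 1 had members called in opposite directions. That 1 was the UGT85A array on chromosome 1 in *phyB*, where *UGT85A2* rose by 0.54 and *UGT85A1* fell by 0.36. In the same array in *jazQ phyB*, *UGT85A5* and *UGT85A1* fell against WT (−0.82 and −0.40) and *UGT85A2* was at 0.22 ± 0.069 (edgeR adjusted p = 0.042). *UGT85A3* and *UGT85A7*, both under 1.3 CPM in every library, were not called. In the UGT71 array on chromosome 2, *UGT71C1* rose in *jazQ phyB* by 0.72, whereas *UGT71C2* was at −0.15 ± 0.17 (edgeR adjusted p = 0.593) and *UGT71D1* at 0.19 ± 0.10 (edgeR adjusted p = 0.232). *UGT73C5* and *UGT73C6*, which share reads, fell together in *jazQ phyB*, and in *phyB* their changes were −0.15 and −0.87. *UGT73C1*, counted in another array of the same chromosome, also fell in *jazQ phyB* against WT and, like *UGT73C5*, against *phyB*. The differences between neighbours were not themselves tested.

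**Figure D4:**
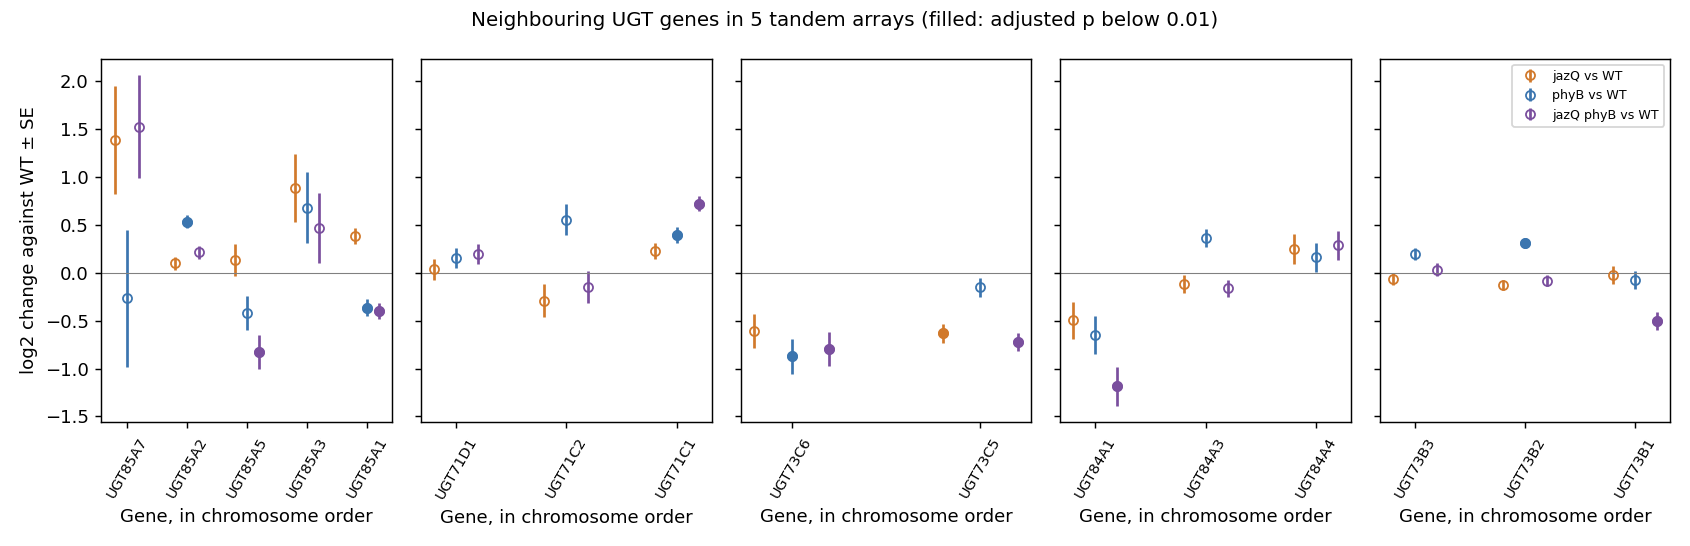
The log2 change against WT with its SE for members of 5 tandem arrays in chromosome order, in *jazQ*, *phyB* and *jazQ phyB*, filled where the adjusted p was below 0.01. In the first panel *UGT85A2* lies above 0 and *UGT85A1* below 0 in *phyB*, and in the fourth *UGT84A1* lies at −1.19 in *jazQ phyB* while *UGT84A4* lies at 0.29.

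Motifs known from jasmonate and light regulation were searched on both strands in the 250 bases before and 50 after each RefSeq gene start. The G-box CACGTG, bound by MYC and PIF factors, was present in 6 of 55 members (10.9%), in 1 of the 23 called members and in 7.68% of all 27444 protein-coding genes. CACATG, a variant bound by MYC factors, was in 11 of 55 members and 12.9% of all genes, and TGACG, bound by TGA factors, in 15 members (27.3%) and 23.1% of all genes. Hits of different motifs may overlap, and a promoter was counted once for each motif. The 6 members with CACGTG were *UGT85A7*, *UGT85A3*, *UGT73B4*, *UGT71B8*, *UGT76E1* and *UGT76E2*. Windows of 26 bases from TAIR10.1, on the strand of the gene and with the G-box in capitals, are shown for the called member *UGT73B4* (chr2:6761581-6761606, plus strand, 44 bases before the start) and for the jasmonate list members *UGT76E1* (chr5:24007933-24007958, minus strand, 41 bases before) and *UGT76E2* (chr5:24010822-24010847, minus strand, 149 bases before). *UGT76E2* has another G-box that starts within the first bases of the gene and is not shown.
UGT73B4: tttaagtgcaCACGTGcgtgtatata
UGT76E1: ttatatactcCACGTGctttttcttg
UGT76E2: ttttgtaaccCACGTGtttggtcttt

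Transcripts of some enzymes that make UDP-sugars also changed. Of 13 genes for sucrose synthases, UDP-glucose pyrophosphorylases and related enzymes, all tested, 1 rose in *jazQ*, 2 rose and 1 fell in *phyB*, and 1 rose and 1 fell in *jazQ phyB* against WT, beside 1.54%, 11.8% and 9.77% of all genes called. *RHM1*, which makes UDP-rhamnose from UDP-glucose, was called in all 3 mutants, at 152 CPM in WT, 209 CPM in *jazQ*, 199 CPM in *phyB* and 237 CPM in *jazQ phyB*, with changes of 0.46, 0.39 and 0.64 (edgeR adjusted p = 0.000925, 0.000672 and 1.51e-05). *UGP2*, a UDP-glucose pyrophosphorylase, fell in *phyB* by 0.46 (edgeR adjusted p = 0.000159), and *SUS1*, a sucrose synthase, rose in *phyB* by 0.50 (edgeR adjusted p = 0.00459). Of the 6 UGTs left out by the rule, 1 rose in *jazQ*, 3 fell in *phyB* and 3 were higher in *jazQ phyB* than in *phyB*. Of all tested genes, 1.54%, 11.8% and 11.8% were called in these comparisons.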

How the data were processed

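RNA of 12 libraries, 3 for each of 4 genotypes, was sequenced as single-end 50 bp reads. The authors assigned reads to TAIR10 gene models with RSEM 1.2.11 at default parameters and deposited expected counts, which were whole numbers (100% of values), and TPM values. Totals were 12750074 to 26347184 counts per library. Replicates are independent samples per the labels. Intervals of detection cover counting error alone.

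Counts were fitted in edgeR 4.0.16 (R 4.3.3) with TMM normalization, filterByExpr (minimum count 10; 20957 genes kept) and the quasi-likelihood test over all 4 genotypes without blocks. The 6 comparisons were tested, each with Benjamini-Hochberg adjustment over all tested genes, and an adjusted p below 0.01 was a call. SE is the log2 change over the root of F.

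Alternatives were DESeq2 1.42.0, RLE size factors, no filter, limma 3.58.1 trend on log2(TPM + 1), a replicate block, fits to 2 genotypes, and leaving out each library. RLE moved the median of all genes by under 0.1 (log2).

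Members were named when called with at least 1 CPM, among the 10 highest by TPM, on a substrate list or in an array with a called member; *UGT71B1*, *UGT72B3*, *UGT85A4* and *UGT71B5*, called in no comparison, complete the 27 not called. Members and lists were chosen with earlier results of these data known. Of the list symbols, 11 are not members and were not used. Sequences and gene order came from the RefSeq annotation of TAIR10.1 (Biopython 1.88), not the annotation behind the counts.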

Additional observations from a re-analysis of the deposited data

Results flagged for a closer look

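The effect of the *jazQ* mutations on *UGT76D1* differed with the *phyB* genotype. *UGT76D1* was at 2.02 CPM in WT and 1.35 CPM in *jazQ*, and at 1.67 CPM in *phyB* and 3.36 CPM in *jazQ phyB* (means, n = 3). The interaction of 1.58 ± 0.28 on the log2 scale passed the threshold in edgeR's test (adjusted p = 0.00363). It did not pass without WT replicate 1 or 2 or *phyB* replicate 1 or 2 (adjusted p = 0.0103 to 0.0119).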

How the results depend on the processing

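Of the 47 calls, 19 held in every alternative and without each library, and none reversed. DESeq2, RLE size factors and no filter on low counts ended 0 calls, limma on TPM 15 and fits to 2 genotypes 8. The members called in *jazQ* against WT numbered 2, and 5 with DESeq2, 1 with limma on TPM and 0 with 2 genotypes in the fit. The shares of all genes were 1.54%, 2.28%, 1.18% and 0.527%. The interaction was called for 1 member, and for 4 with DESeq2, beside 3.61% and 4.18% of all genes. Without 1 library at a time, the counts ranged from 0 to 3 (*jazQ* against WT), 5 to 11 (*phyB* against WT), 7 to 13 (*jazQ phyB* against WT), 3 to 8 (against *jazQ*), 6 to 14 (against *phyB*) and 0 to 3 (interaction). In the same order, 0.791 to 2.35%, 6.54 to 11.9%, 5.64 to 10.2%, 3.04 to 7.42%, 6.68 to 12.3% and 1.7 to 3.57% of all genes were called. The cause was not tested, but such fits hold fewer libraries. Of 18 pairs of same-numbered libraries, 3 deviated together at r over 0.1 across all tested genes (r = −0.212 to 0.312, against −0.343 to 0.317 for other pairs), so libraries were not treated as paired. With a replicate block the counts were 2, 12, 13, 7, 12 and 1, and 1 call was lost (*UGT73B1* against *phyB*, edgeR adjusted p = 0.0101).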

Other observations

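Genes named as UDP-glycosyltransferase superfamily whose rows carry no UGT symbol were also measured. Of 62 tested genes, 4 rose and 0 fell in *jazQ* against WT (6.45%, beside 1.54% of all tested genes). In *phyB* 1 rose and 2 fell (4.84%, beside 11.8%), and in *jazQ phyB* 5 rose and 3 fell (12.9%, beside 9.77%). *AT3G46700* was at 36.0 CPM in WT, 71.3 CPM in *jazQ*, 39.8 CPM in *phyB* and 86.1 CPM in *jazQ phyB*, and rose in *jazQ* by 0.99 (edgeR adjusted p = 1.94e-05). *UGT76B1*, which glucosylates isoleucic acid and salicylate and has its symbol in RefSeq alone, was at 22.8, 37.3, 26.0 and 38.4 CPM in the same order, and rose in *jazQ* by 0.71 (edgeR adjusted p = 0.0016).

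Among the β-glucosidases, enzymes of the kind that remove glucose, 34 were tested. In *jazQ* against WT 5 rose and 0 fell (14.7%, beside 1.54% of all tested genes). In *phyB* 3 rose and 3 fell (17.6%, beside 11.8%), and in *jazQ phyB* 7 rose and 2 fell (26.5%, beside 9.77%). *BGLU22* was at 119 CPM in WT, 471 CPM in *jazQ*, 129 CPM in *phyB* and 571 CPM in *jazQ phyB*. *BGLU8* went the other way, at 91.7, 91.6, 82.8 and 62.0 CPM, and fell in *jazQ phyB* by 0.57 against WT (edgeR adjusted p = 2.5e-05).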
